A study of Mus musculus with 9 samples.

Results

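A set of 6 genes around the last steps of ketone body synthesis and the export of its products were followed in mouse liver: Acat1, Bdh1, Bdh2, Oxct1, Slc16a1 and Slc16a7. They were chosen by name, with earlier results of these data known, and each was read from probe sets assigned to its symbol alone. A gene with several such probe sets was represented by the one with the highest mean signal over the 9 arrays. They stand among 18193 with a probe set of their own, and all 6 are among the 12467 genes that were tested. The set has 13 probe sets, of which 12 passed the filter on low signal.

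All mice were females of the outbred stock Crlj:CD1(ICR), bought at 9 weeks of age, quarantined for 1 week and given powdered diet and water freely. There were 3 groups of 3 mice, fed for 2 weeks. The first diet held 5000 ppm permethrin, a pyrethroid insecticide, and the second 5000 ppm clofibrate, a lipid-lowering fibrate of the kind that activates the nuclear receptor PPAR alpha. The third was the control diet with 0 ppm of either chemical. Each liver gave 1 array, named a biological replicate in the labels, and values are MAS5 signals, a linear measure of probe set brightness. Rats appear in the description field of the treated samples, whereas their organism, strain and source name say mouse, and they were taken as mouse.

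Ketone bodies are made in the mitochondria of hepatocytes from acetyl-CoA that fatty acid oxidation supplies, chiefly in fasting. ACAT1 joins acetyl-CoA units to acetoacetyl-CoA, further enzymes turn this into acetoacetate, and BDH1 reduces acetoacetate to beta-hydroxybutyrate. Monocarboxylate transporters of the plasma membrane, among them MCT1 (Slc16a1) and MCT2 (Slc16a7), carry ketone bodies, lactate and pyruvate with a proton. Other tissues burn ketone bodies with the help of OXCT1, an enzyme that hepatocytes are known for lacking. Ketone bodies themselves were not measured in the data used here.

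The median signal of an array lay between 13.4 and 17.9, and the filter asked for a signal above 15.6 on at least 3 arrays. An offset of 3.35 was added before log2, so log2 changes of dim genes are understated. All 9 hepatocyte markers with a probe set were above the filter on every array. Their summed signal was 72687 to 78622 with permethrin, 57156 to 69344 with clofibrate and 81529 to 90944 in controls. With clofibrate 5 of the 9 fell, most of all Cps1, a urea cycle enzyme, to 6014 ± 429.9 against 9632 ± 777 in controls (SD, n = 3 each; limma adjusted p = 0.00203). With permethrin 0 of 9 passed limma (4 at an unadjusted p under 0.05). Among the 34 tested markers of other cells, 1 passed against control, the pancreatic elastase gene Cela1, at 207 ± 69.2 with permethrin, 199.7 ± 18.7 with clofibrate and 1295 ± 189 in controls (SD, n = 3 each). Summed endothelial markers were 1556 to 1796 with permethrin, 1388 to 1464 with clofibrate and 1758 to 1991 in controls. The ratio of 3′ to 5′ signal, a sign of RNA quality, was 0.835 to 0.904 with permethrin, 0.856 to 0.894 with clofibrate and 0.912 to 1.04 in controls for Gapdh. For actin it was 2.27 to 3.84 with permethrin, 2.30 to 2.77 with clofibrate and 3.01 to 3.98 in controls. Peak brightness per array ran from 12792 to 13408.5 with permethrin, from 10714 to 12058 with clofibrate and from 14387 to 14899 in controls. Its relation to the lower signals of the bright hepatocyte markers was not tested. The part of these shifts in the results below was not tested either. In a piece of liver, fewer cells of a type and less RNA per cell cannot be told apart.

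Against the control diet, clofibrate raised 1 of the 6 genes, the transporter gene Slc16a1, by 1.96-fold, and 0 of 6 fell. In the same limma fit 7.03% of all tested genes passed at an adjusted p under 0.05. An unadjusted p under 0.05 was found for 4 of the 6, and for 2623 of the 12467 tested genes. Permethrin moved 0 of 6 past the adjusted threshold, where 2.13% of all genes passed. Its unadjusted p was under 0.05 for 1 of 6, and for 1968 of the 12467. Between permethrin and clofibrate 0 of 6 passed after adjustment, against 0.738% of all genes. There the unadjusted p was under 0.05 for 1 of 6, and for 1624 of the 12467. With 6 genes, counts of 0 and 1 past the adjusted threshold lie near what those percentages give. The median log2 change of the 6 genes was 0.10 with permethrin and 0.25 with clofibrate against control, where the median of all tested genes was -0.04 in both. Both comparisons use the same 3 control arrays.

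**Figure D1:**
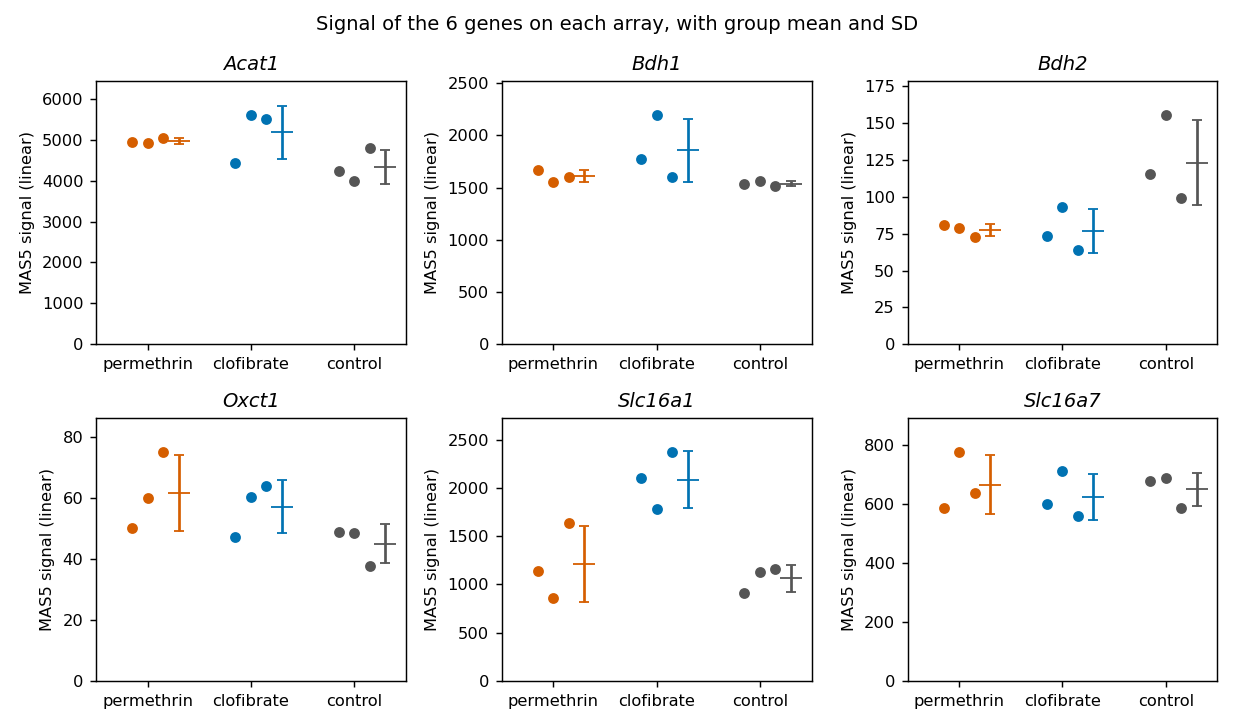
MAS5 signal (linear axis from 0) of the brightest probe set of each gene on the 9 arrays, by diet; points are mice, and the bar beside them is the group mean with its SD. The 3 clofibrate arrays of Slc16a1 lie at 1780.3 and above, over every permethrin and control array, while those of Bdh2 lie at 92.9 and below, under every control array.

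The groups of 3 did not overlap for 3 of the 6 genes with permethrin against control (Acat1, Bdh2 and Oxct1), where 22.7% of all tested genes had such groups. With clofibrate against control they did not overlap for 3 (Bdh1, Bdh2 and Slc16a1), against 27.2% of all genes. Permethrin and clofibrate arrays were apart for 1, Slc16a1, against 18.1% of all genes.

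Slc16a1 encodes MCT1, a proton-linked carrier of ketone bodies and lactate in many tissues. Its signal was 1137, 862 and 1633 with permethrin, 2101, 1780.3 and 2371 with clofibrate, and 906, 1126 and 1156 in controls. All clofibrate arrays were above all others, whereas permethrin arrays spread across and beyond the control range. The means were 1211 ± 391, 2084 ± 296 and 1063 ± 136 in that order of diets (SD, n = 3 each). Clofibrate against control gave a log2 change of 0.97 ± 0.20 (SE), with a 95% interval of 0.52 to 1.42 (limma adjusted p = 0.0184), higher in 3 of 3 mice. The summed hepatocyte markers and the highest signal of the arrays were both lower than in controls in the same mice. Their relation to the change of Slc16a1 was not tested.

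With permethrin against control the log2 change of Slc16a1 was 0.15 ± 0.20, with an interval of -0.30 to 0.59 (limma adjusted p = 0.811). Set directly against clofibrate, permethrin differed by -0.82 ± 0.20, with an interval of -1.27 to -0.37 (unadjusted p = 0.00193, limma adjusted p = 0.122). The difference between the chemicals therefore missed the threshold over all probe sets, although the arrays did not overlap. Without permethrin replicate 3, the highest of its group, it was -1.06 and passed (limma adjusted p = 0.0368). The call for clofibrate against control was lost without control replicate 1 (0.86, limma adjusted p = 0.0826), without clofibrate replicate 3 (0.87, limma adjusted p = 0.0836) and without the intensity trend (0.97, limma adjusted p = 0.078).

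A dimmer probe set also assigned to Slc16a1 stayed under the filter, at 6.90 ± 3.37 with permethrin, 11.4 ± 7.18 with clofibrate and 7.03 ± 4.16 in controls (SD, n = 3 each), and was not tested. Averaging it with the bright one gave a log2 change of 0.71 for clofibrate against control (limma adjusted p = 0.103).

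The sequence before the start of Slc16a1 differs in composition from those found for Bdh1, Bdh2 and Oxct1. It is shown beside that of Bdh2, the gene with the lower signal on both diets. RefSeq windows of GRCm38.p6 were found for 4 of the 6 genes (Bdh1, with 2 starts, Bdh2, Oxct1 and Slc16a1). Each run below is the 250 bases before the start on the plus strand, 5′ to 3′, with CpG dinucleotides in capitals. They lie at chr3:104638414-104638663 for Slc16a1 and chr3:135280971-135281220 for Bdh2.
Slc16a1: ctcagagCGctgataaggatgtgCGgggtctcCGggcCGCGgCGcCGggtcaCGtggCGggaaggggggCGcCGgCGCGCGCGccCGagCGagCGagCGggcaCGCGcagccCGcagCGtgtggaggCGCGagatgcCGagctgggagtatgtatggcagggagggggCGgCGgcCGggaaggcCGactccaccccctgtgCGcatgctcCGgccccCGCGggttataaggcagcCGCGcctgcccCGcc
Bdh2: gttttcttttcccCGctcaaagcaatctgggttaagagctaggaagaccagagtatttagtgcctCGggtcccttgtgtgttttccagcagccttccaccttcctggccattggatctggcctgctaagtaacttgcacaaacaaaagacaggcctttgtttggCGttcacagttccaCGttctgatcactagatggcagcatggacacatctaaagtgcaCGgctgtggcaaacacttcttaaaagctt

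The Slc16a1 window holds 37 CpG dinucleotides and is 76.4% G or C, and 2.2% of the 32851 windows of the RefSeq table hold as many CpGs. Bdh2 has 5 CpGs in a window of 48.0% G or C, close to the median of 6 CpGs over all windows. Oxct1 has 6, and the 2 Bdh1 windows have 7 and 9. The nuclear receptor motif AGGTCA, searched on both strands, was in 0 of these 5 windows and in 14% of all windows. Its direct repeat with 1 base between (AGGTCANAGGTCA, both strands, which contains the shorter motif) was in 0 of the 5 and in 0.0335% of all. This says only that these letters do not occur in these windows.

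Slc16a7 encodes MCT2, a relative of MCT1 with a higher affinity for its substrates. Its signal was 585, 775 and 635 with permethrin, 600.2, 710.1 and 559 with clofibrate, and 677, 687 and 586 in controls. The ranges of all diets overlapped. Log2 changes against control were 0.03 ± 0.14 with permethrin and -0.06 ± 0.14 with clofibrate (limma adjusted p = 0.958 and 0.859). The 95% intervals ran from -0.28 to 0.33 and from -0.37 to 0.24, so a change as large as that of Slc16a1 with clofibrate lies outside both. Scaling arrays to the hybridization controls turned the clofibrate value positive, to 0.27.

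**Figure D2:**
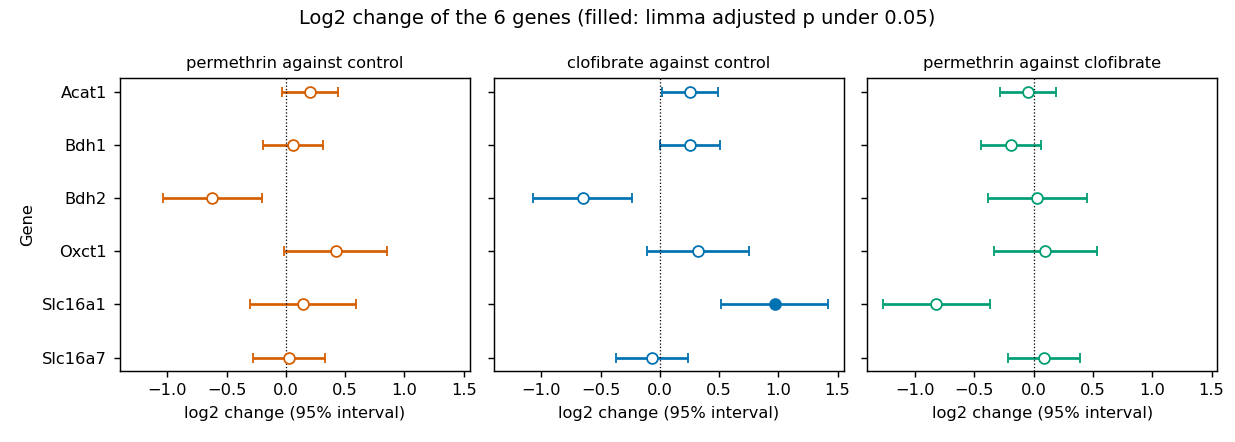
Log2 change of each gene (horizontal axis, points) with its 95% interval (bars) in the 3 comparisons; filled points passed limma at an adjusted p under 0.05. Only Slc16a1 with clofibrate against control is filled, at 0.97, and Bdh2 lies left of 0 against control with both chemicals, at -0.62 and -0.65.

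Acat1 encodes the mitochondrial acetoacetyl-CoA thiolase, which also ends the breakdown of isoleucine. The signal of its brightest probe set was 4952, 4924 and 5049.8 with permethrin, 4439, 5599 and 5511 with clofibrate, and 4236, 3994 and 4806 in controls. Permethrin arrays lay close together above all controls, and clofibrate replicate 1 fell inside the control range. Log2 changes against control were 0.20 ± 0.11 with permethrin and 0.25 ± 0.11 with clofibrate (limma adjusted p = 0.458 and 0.232). Neither passed, and permethrin differed from clofibrate by -0.05 ± 0.11, with an interval of -0.29 to 0.19. Without clofibrate replicate 1 the clofibrate value was 0.36 and passed (limma adjusted p = 0.0486).

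The 2 other probe sets of Acat1 did pass with clofibrate. One averaged 3787 ± 435 with permethrin, 4323 ± 469 with clofibrate and 2963 ± 81.4 in controls (SD, n = 3 each). Its log2 changes against control were 0.35 ± 0.11 with permethrin (SE; limma adjusted p = 0.167) and 0.54 ± 0.11 with clofibrate (limma adjusted p = 0.0147). The dimmest averaged 617 ± 13.7 with permethrin, 884 ± 117 with clofibrate and 559 ± 113 in controls (SD, n = 3 each). Its log2 changes were 0.16 ± 0.15 with permethrin (SE; limma adjusted p = 0.702) and 0.67 ± 0.15 with clofibrate (limma adjusted p = 0.027). For both, the clofibrate arrays lay above all control arrays. So the count of genes called depends on which Acat1 probe set stands for the gene. With the mean of its probe sets the clofibrate change was 0.49 (limma adjusted p = 0.0293), and with quantile normalization the brightest one passed at 0.41 (limma adjusted p = 0.0182).

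Bdh1 encodes the mitochondrial dehydrogenase that makes beta-hydroxybutyrate. Its signal was 1669.6, 1553 and 1599 with permethrin, 1777, 2191 and 1598.5 with clofibrate, and 1538, 1561 and 1517 in controls. Clofibrate arrays were all above the controls, by a small margin for replicate 3, and permethrin arrays overlapped the controls. Log2 changes against control were 0.06 ± 0.12 with permethrin and 0.26 ± 0.12 with clofibrate (limma adjusted p = 0.865 and 0.256). Without clofibrate replicate 2, the highest of its group, the clofibrate value was 0.13 (limma adjusted p = 0.576). Its dimmer probe set averaged 432 ± 17.2 with permethrin, 623 ± 86.8 with clofibrate and 469 ± 37.8 in controls (SD, n = 3 each). There the clofibrate change was 0.40 ± 0.12 (limma adjusted p = 0.0921), and permethrin lay -0.52 ± 0.12 from clofibrate with no overlap of arrays (unadjusted p = 0.00148, limma adjusted p = 0.106). Neither probe set of Bdh1 passed in any of the 3 comparisons.

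Bdh2 encodes a cytosolic short-chain dehydrogenase that has been linked to ketone body use and to an iron-binding siderophore. It was the gene with lower signals on both treated diets: 80.8, 78.9 and 73.0 with permethrin, 73.5, 92.9 and 63.9 with clofibrate, and 115, 155 and 99.1 in controls. All treated arrays were below all controls, and the controls had the widest spread. The means were 77.6 ± 4.06, 76.8 ± 14.8 and 123 ± 29.0 (SD, n = 3 each). Log2 changes against control were -0.62 ± 0.19 with permethrin (interval -1.04 to -0.20, unadjusted p = 0.00739) and -0.65 ± 0.19 with clofibrate (interval -1.07 to -0.23, unadjusted p = 0.00564). Neither passed after adjustment over all probe sets (limma adjusted p = 0.159 and 0.0764). With array weights the clofibrate value was -0.78 and passed (limma adjusted p = 0.0186), and over the other alternatives its adjusted p reached 0.427, at -0.33 with arrays scaled to hybridization controls. Without clofibrate replicate 3 it was -0.53 (limma adjusted p = 0.253). Permethrin and clofibrate differed by 0.03 ± 0.19, with an interval of -0.39 to 0.45.

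Oxct1, the enzyme of ketone body use, had low signals on all diets. Its brightest probe set read 50.3, 59.9 and 75.1 with permethrin, 47.4, 60.4 and 63.9 with clofibrate, and 48.8, 48.7 and 37.6 in controls. Permethrin arrays were above all controls, the lowest of them by a small margin, and clofibrate arrays overlapped the controls. Log2 changes against control were 0.42 ± 0.20 with permethrin and 0.32 ± 0.20 with clofibrate (limma adjusted p = 0.381 and 0.425). The permethrin value was 0.28 without permethrin replicate 3, and the clofibrate value was 0.21 without control replicate 3.

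The 3 other Oxct1 probe sets averaged 30.4 or less in every group and did not move together. One with a suffix that marks possible cross-hybridization (x_at) read 19.3 ± 3.69 with permethrin, 17.0 ± 5.92 with clofibrate and 27.8 ± 0.165 in controls (SD, n = 3 each). Its log2 changes against control were -0.47 ± 0.28 and -0.66 ± 0.28 (limma adjusted p = 0.509 and 0.229), opposite in sign to the brightest one. Another ranged from 1.16 to 25.4 on permethrin arrays, from 22.6 to 27.6 on clofibrate arrays and from 5.65 to 27.3 on control arrays. None of the 4 passed in any comparison, and their disagreement leaves no direction for Oxct1.

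**Figure D3:**
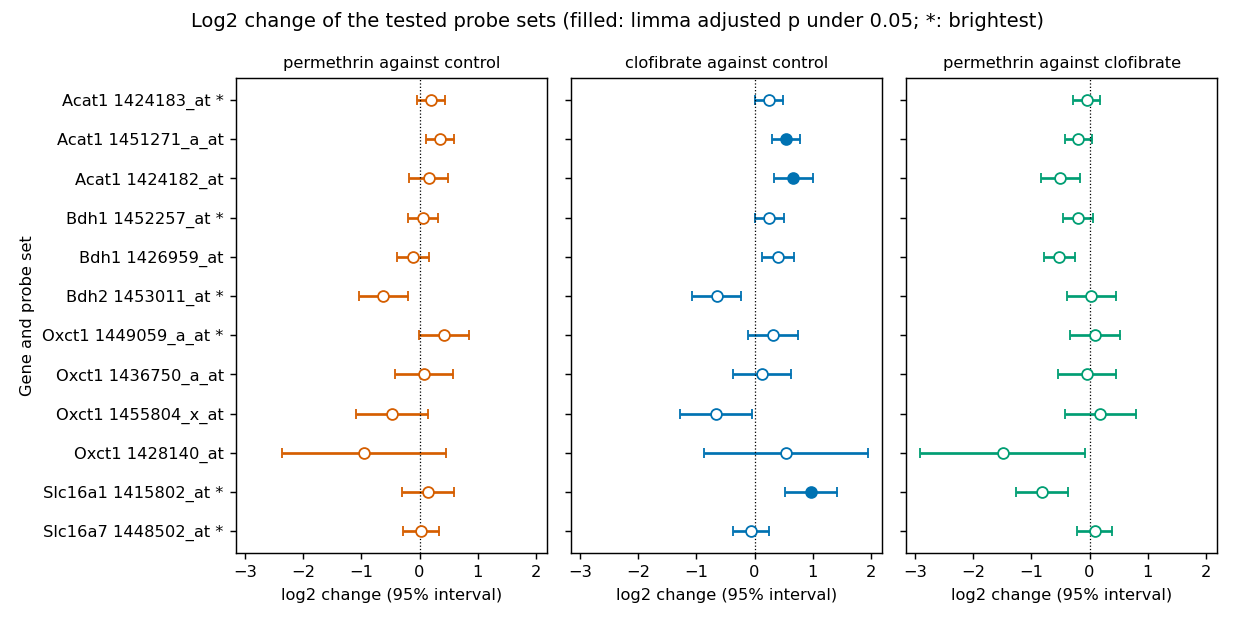
Log2 change (horizontal axis) with its 95% interval for each of the 12 tested probe sets, by gene and probe set, in the 3 comparisons; filled points passed limma at an adjusted p under 0.05, and an asterisk marks the brightest probe set of its gene. With clofibrate against control 2 Acat1 probe sets (0.54 and 0.67) and that of Slc16a1 (0.97) are filled, and the Oxct1 probe sets lie on both sides of 0.

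Other genes of the monocarboxylate transporter (Slc16) family were read from a list of 16 genes. Of these, 15 had a probe set and 9 were tested. The list also held chaperones, and Slc5a8 and Slc5a12 of another carrier family. Slc5a8 and Slc5a12 stayed below the filter and were not tested. Slc16 genes were listed by family name, and what each of them carries was not considered. With permethrin 1 of 9 rose and 0 fell, and with clofibrate 1 rose and 0 fell. The median log2 changes were -0.26 and 0.06. In both comparisons the gene was Slc16a13, a family member whose locus has been linked to diabetes in humans. Its signal was 64.7, 48.1 and 64.8 with permethrin, 141, 119 and 100.5 with clofibrate, and 23.7, 27.1 and 22.1 in controls. The 3 diets did not overlap, with clofibrate highest and controls lowest.

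Slc16a13 changed by 1.17 ± 0.19 with permethrin and by 2.15 ± 0.19 with clofibrate against control on the log2 scale (limma adjusted p = 0.00993 and 9.5e-05). Permethrin was lower than clofibrate by a tested difference of -0.98 ± 0.19 (limma adjusted p = 0.0448). Bsg, the chaperone that brings MCT1 to the membrane, averaged 1994 ± 146 with permethrin, 2534 ± 334 with clofibrate and 2177 ± 276 in controls (SD, n = 3 each). It passed in no comparison, with log2 changes against control of -0.12 ± 0.13 and 0.22 ± 0.13 (limma adjusted p = 0.728 and 0.395). Slc16a3, which encodes the lactate exporter MCT4, was below the filter, with no array above 11.9.

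**Figure D4:**
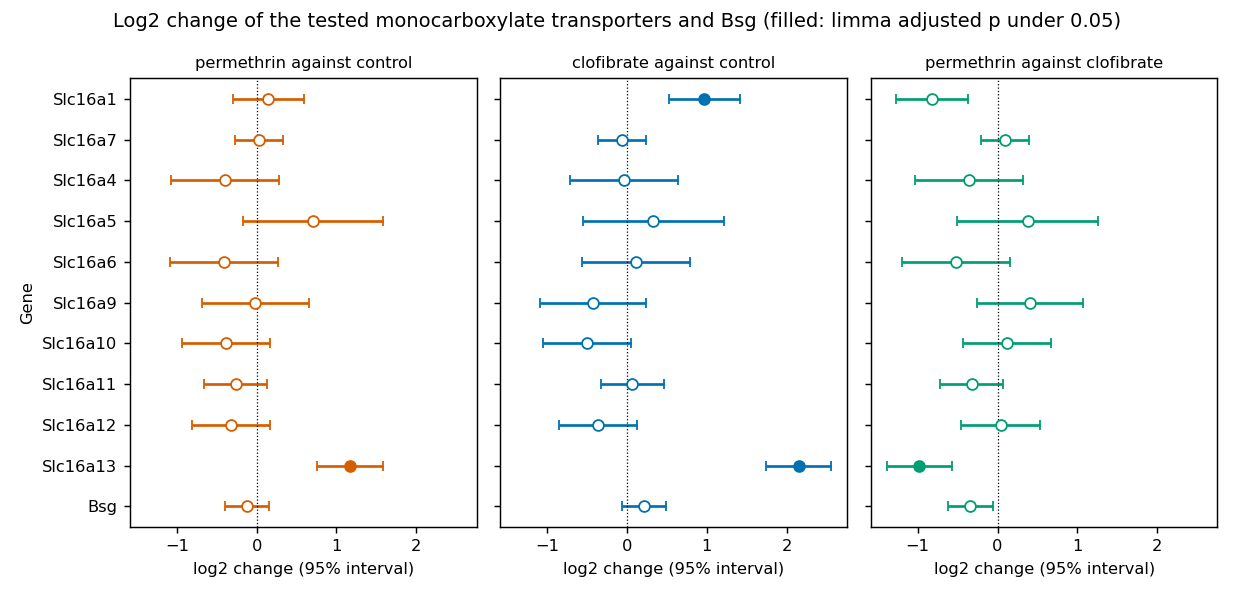
Log2 change (horizontal axis) with its 95% interval for the tested genes of the monocarboxylate transporter (Slc16) family and the chaperone Bsg in the 3 comparisons. Filled points passed limma at an adjusted p under 0.05. Slc16a13 is filled in all 3 panels (1.17, 2.15 and -0.98) and Slc16a1 in the clofibrate panel (0.97), while the other points are open.

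Among the thiolases other than Acat1, 5 of 7 listed genes were tested, and clofibrate raised 2 with 0 lower. These 2, Hadhb and Acaa1a, were each read from an x_at probe set, whose suffix marks possible cross-hybridization. Hadhb, which encodes the thiolase subunit of the mitochondrial trifunctional protein, had 3083 ± 472 with permethrin, 4749 ± 736 with clofibrate and 2311 ± 152 in controls (SD, n = 3 each). Its log2 change was 0.41 ± 0.14 with permethrin (limma adjusted p = 0.21) and 1.03 ± 0.14 with clofibrate (limma adjusted p = 0.00141). The peroxisomal thiolase gene Acaa1a rose with clofibrate by 1.33 ± 0.25 (limma adjusted p = 0.0103) and had 0.85 ± 0.25 with permethrin (limma adjusted p = 0.143). Its close relative Acaa1b has transcripts that resemble it and may share its probes, so the 2 cannot be told apart with certainty. Acaa1b had a clofibrate change of 0.00 ± 0.10. It was bright, at 10671 ± 551 with permethrin, 9006 ± 1080 with clofibrate and 8976 ± 733 in controls (SD, n = 3 each). The highest signal of any probe set on a clofibrate array was 10714 to 12058. Whether so bright a probe set could show a rise was not tested. With permethrin 0 of the 5 passed limma (3 at an unadjusted p under 0.05).

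Of 8 genes listed as partners of the ketone pathway, 4 had a probe set and 2 were tested. Aacs, which encodes the cytosolic enzyme that activates acetoacetate for lipid synthesis, read 300, 266 and 446 with permethrin, 192, 631 and 417 with clofibrate, and 72.4, 150.5 and 37.6 in controls. Treated arrays were above all controls on both diets, with a wide spread in each group. The log2 change was 2.09 ± 0.48 with permethrin (limma adjusted p = 0.0579) and 2.26 ± 0.48 with clofibrate (limma adjusted p = 0.0182). Hmgcs1, the cytosolic HMG-CoA synthase of sterol synthesis, had 0.50 ± 0.22 and 0.53 ± 0.22 (limma adjusted p = 0.345 and 0.207).

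Regulators of ketone body synthesis were read from 11 genes, all tested. Clofibrate raised 2 with 0 lower, and permethrin moved 0 past limma (4 at an unadjusted p under 0.05). Cpt1a, whose enzyme admits long-chain fatty acids to mitochondria, read 1129 ± 132 with permethrin, 1791 ± 190 with clofibrate and 1092 ± 138 in controls (SD, n = 3 each). Clofibrate changed it by 0.71 ± 0.13 (limma adjusted p = 0.00859), and permethrin differed from clofibrate by -0.67 ± 0.13 (limma adjusted p = 0.0537). Fgf21, a hormone of the fasting response, was dim, at 24.7 ± 0.989 with permethrin, 44.3 ± 7.99 with clofibrate and 19.4 ± 8.55 in controls (SD, n = 3 each). Its log2 change with clofibrate was 1.14 ± 0.30 (SE; limma adjusted p = 0.0484). Ppara, the receptor gene itself, had 0.00 ± 0.13 with permethrin and 0.44 ± 0.13 with clofibrate (limma adjusted p = 0.996 and 0.0888).

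Acat1 also serves the breakdown of branched-chain amino acids, for which 20 of 20 listed genes were tested. With clofibrate 0 rose and 1 fell, Dbt, which encodes a core subunit of branched-chain keto acid dehydrogenase. Dbt read 769 ± 116 with permethrin, 537 ± 44.3 with clofibrate and 950.1 ± 139 in controls (SD, n = 3 each). Its log2 change with clofibrate was -0.81 ± 0.15 (SE; limma adjusted p = 0.00769). With permethrin 0 of 20 passed limma (2 at an unadjusted p under 0.05). The median log2 changes of the list were -0.04 with permethrin and 0.02 with clofibrate.

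The genes whose log2 signal followed each member most closely over the 9 arrays are given by Pearson correlation among the other 12466 tested genes, as a description, since arrays of a diet share its effect. For Slc16a1 they were Mapre3 (0.977), Rae1 (0.945) and Tenm3 (0.936). Tenm3 averaged 206 ± 26.0 with permethrin, 313 ± 20.3 with clofibrate and 159.6 ± 10.1 in controls (SD, n = 3 each), the same order of diets as Slc16a1. For Bdh2 they were Mfhas1 (0.942), Clec2d (0.932) and Fzd8 (0.931). Mfhas1 read 337 ± 21.9, 294 ± 49.3 and 484 ± 72.7 for the same diets, with controls highest as for Bdh2.

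Acat1 was followed by Bend3 (0.973), Xpo6 (0.968) and Pomp (0.952), and Bdh1 by Rassf7 (0.940), Gtdc1 (0.924) and Atpif1 (0.918). The closest to Oxct1 were Tjp3 (0.968), Herc2 (0.960) and Prkci (0.943), and those to Slc16a7 were Dennd2d (0.958), Fem1b (0.954) and Slc18a1 (0.930). No member was among the closest genes of another.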

How the data were processed

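Liver RNA of 9 mice was hybridized to Affymetrix arrays, 1 array per mouse. The authors computed MAS5 values, per the submitters' processing notes, and deposited 1 linear intensity per probe set and array; its version and settings are not given in those notes. Arrays share a mean of 100.001 without its lowest and highest 2% of signals. Of 45101 rows, 64 are array controls. Of the other 45037 probe sets, 34945 have 1 gene symbol in GEO's platform annotation. For 34754 the symbol was taken from RefSeq through the Entrez identifier, whether or not it differed from the annotated one. Genome coordinates of probe sets were not used.

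The offset of 3.35 is the 20th percentile of all signals and the filter of 15.6 their median, which left 24548 probe sets. limma 3.58.1 (R 4.3.3) fitted a mean per group over all 9 arrays, with an intensity trend, and was checked on simulated data. Tests were two-sided with Benjamini-Hochberg adjustment over the 24548 probe sets per comparison. Genes are counted by their brightest probe set. Intervals are at 95%, and n = 3 per group limits the precision. After ± stands the SD for a signal and the standard error for a log2 change. The members and gene lists were chosen with earlier results of these data known. Named are the members, up to 3 genes per list with the largest changes past the threshold, 3 fixed genes (Bsg, Ppara, Cpt1a) and the 3 genes closest to each member. The markers Cps1 and Cela1 had the largest changes of their lists. Hmgcs1, Acaa1b and Slc16a3 were added after their values were seen. No label ties equal replicate numbers to a shared litter, day or batch. Over 9 pairs of such arrays, departures from the group means had correlations of -0.109 to 0.113, so no pairing was used.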

Additional observations from a re-analysis of the deposited data

How the results depend on the processing

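Alternatives changed 1 choice at a time, 12 of method and 9 that left out an array. The changes of the 6 genes in 3 comparisons gave 378 values, of which 349 kept direction and side of the threshold, 4 lost a call, 7 gained one and 18 turned sign. Causes were not tested, except that averaging probe sets brings dim ones in and leaving out an array has fewer samples. The number of the 6 genes called with clofibrate against control (1) was 2 with quantile normalization, 2 with array weights, 3 when scaled to hybridization controls, 0 without the intensity trend and 0 to 2 without single arrays. Over all genes the calls of that comparison (876) were 799 with quantile normalization and 1496 with array weights. They were 1103 (1015 higher) when scaled to hybridization controls and 396 without the intensity trend. Hybridization control scaling gave the median gene a shift of 0.14 with permethrin and 0.32 with clofibrate, each against control, and of -0.18 between the chemicals. Under it Acat1 and Bdh1 were called with clofibrate at 0.59 each, or 0.27 and 0.28 relative to the median gene, and Slc16a1 had 1.30, or 0.99 relative to it. Between the chemicals the count was 0 to 1 without single arrays, and with permethrin against control it was 0 under every alternative.

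Over all genes, 266 (160 higher, 106 lower) were called for permethrin against control, 143 (117 and 26) with arrays centred on their median, 166 (144 and 22) with hybridization control scaling, 80 (62 and 18) without the trend and 108 to 318 without single arrays. For clofibrate against control 876 (402 and 474) became 487 (305 and 182) when centred and 396 without the trend, 1496 with array weights and 430 to 889 without single arrays, and hybridization control scaling left 92% of calls higher, against 45.9%. For permethrin against clofibrate 92 (59 and 33) became 33 (26 and 7) when centred, 43 (9 and 34) with hybridization control scaling, 10 without the trend, 226 (118 and 108) with array weights, 48 with only the groups compared and 17 to 119 without single arrays.

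Signs turned only in changes that had not passed. For Slc16a7 this was permethrin against control with quantile normalization (-0.017) and without single arrays (-0.088 to 0.11), clofibrate against control when centred (0.021), with hybridization control scaling (0.27) and without single arrays (-0.16 to 0.010), and permethrin against clofibrate with that scaling (-0.096) and without single arrays (-0.025 to 0.19). The same scaling turned Bdh2 (-0.15) and Oxct1 (-0.079) between the chemicals, where single arrays gave -0.089 to 0.17 and -0.045 to 0.23, and Acat1 ran from -0.16 to 0.0083. Averaging probe sets turned Bdh1 (-0.027) and Oxct1 (-0.23) for permethrin against control and Oxct1 (-0.31) between the chemicals. Slc16a1 for permethrin against control ran from -0.093 to 0.37 without single arrays. With the replicate number as a block, which the data do not bear out as pairing, 205, 726 and 63 genes were called in the 3 comparisons, and Slc16a1 kept its clofibrate call (limma adjusted p = 0.0105).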
